A study of Mus musculus with 31 samples.

Results

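Mitochondrial import and carrier genes were followed in 31 BXD recombinant inbred mouse strains, as transcript ratios to C57BL/6J. They were the genes whose probes carried a single gene name starting with Timm, Tomm or Slc25a, and they came to 61 of the 15096 genes with such a name on the array: 15 Timm, 10 Tomm and 36 Slc25a genes. Tomm70a had 2 probes, which were averaged, and the other 60 members had 1 probe each, 62 probes in all.

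Nearly all mitochondrial proteins are made in the cytosol and imported. Precursors enter through the TOM complex of the outer membrane; the TIM23 complex and its motor then draw those with a presequence into the matrix, while small TIM chaperones hand membrane proteins to the TIM22 complex. The main cargo of TIM22 is the Slc25a family itself, the carriers of the inner membrane that exchange nucleotides, phosphate, organic acids, amino acids, cofactors and iron between cytosol and matrix. Kidney tubules and neurons are both rich in mitochondria.

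The strains descend from a cross of C57BL/6J with DBA/2J. RNA of 3 males aged 8 weeks was pooled for each strain, labelled with Alexa Fluor 647 and hybridised on 1 spotted glass array against C57BL/6J RNA of males of that age, which carried Alexa Fluor 555 and spike-in transcripts on every array, without a dye swap. Titles of the samples give kidney as the tissue and the source and tissue fields give whole brain. The 24 strains numbered 1 to 32 and the 7 numbered 33 to 42 were compared as BXD1-32 and BXD33-42, a division of the panel by breeding that is background knowledge and not in the labels.

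The values are log2 ratios, most likely of strain over reference, and every "higher" and "lower" here rests on that reading of their direction. Each strain had 1 array, so effects of the strain and of the array cannot be told apart. P-values measure the spread between arrays. Correlations between arrays ran from -0.0926 to 0.808. Average linkage placed the arrays in clusters of 10 (cluster 1), 4 (cluster 2), 6 (cluster 4) and 9 (cluster 5), with BXD15 and BXD38 each alone. The first principal component held 21.9% of the variance of all genes over strains. Spots recurred in a print repeat of 480 positions with 48 probes at each, and position explained 36.7% of the variance of the probe means, so values with the position effect removed are given where they bear on a result. Signal over background is unknown and the number of arrays limits the precision.

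The panel mean, the average ratio of a gene over the 31 strains, asks which genes differed on the whole from C57BL/6J. With the same reference and dye on all arrays it holds dye, reference and strain effects together. Of the 61 members, 25 were higher (41.0%) and 15 lower (24.6%) at an adjusted p under 0.05 (limma, Benjamini-Hochberg over all genes), and 21 did not pass. Among all 15096 genes 26.5% were higher and 29.3% lower, so calls of this kind were common throughout. The median of the member means was 0.08 against -0.01 over all genes. Among the called members 5 had a mean of 0.5 or more and 3 a mean of -0.5 or less, beside 3.7% and 6.17% of all genes. Without BXD15 and BXD38 the counts were 27 and 14. With the array clusters as a random block 8 members remained higher (13.1%) and 6 lower (9.84%), beside 9.79% and 9.88% of all genes. The 8 were Tomm6, Tomm20, Timm17b, Timm50, Slc25a4, Slc25a28, Slc25a32 and Slc25a35, and the 6 were Tomm34, Timm9, Timmdc1, Slc25a24, Slc25a31 and Slc25a38. With spot position removed 27 members were higher (44.3%) and 16 lower (26.2%), beside 29.6% and 25.1% of all genes, so on the low side the members were below the share of all genes as deposited and above it after this step. Of the 61 members 35 were called in the same direction with and without this step, against 43% of all genes, and 0 were called in opposite directions, against 0.205%.

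**Figure D1:**
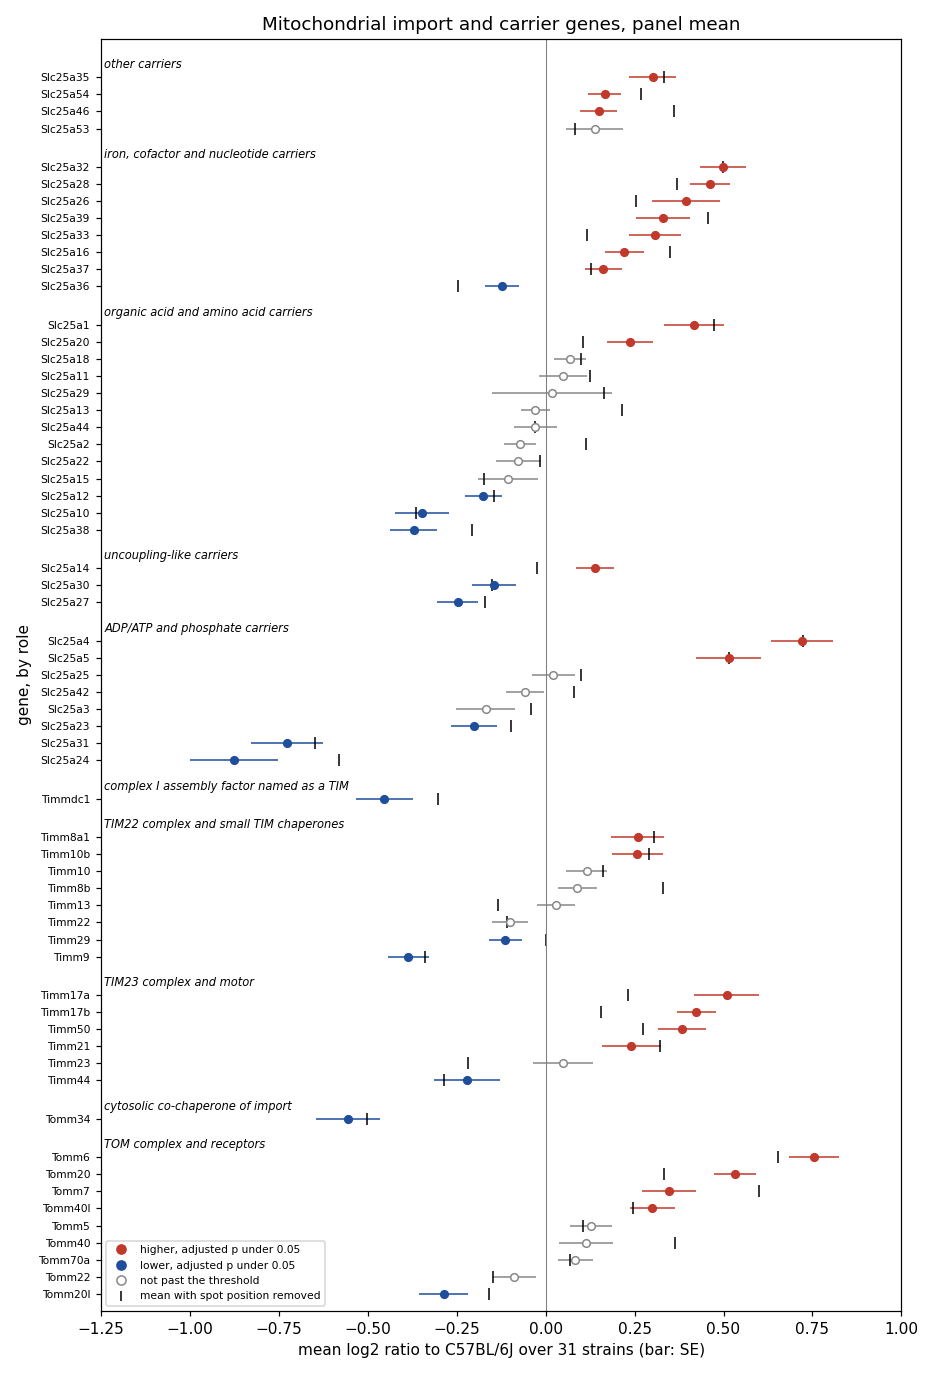
Mean log2 ratio to C57BL/6J over 31 strains for each of the 61 genes, grouped by role; points are means, bars are SE, filled points passed the threshold and upright ticks are means with spot position removed. The means run from -0.88 (Slc25a24) to 0.76 (Tomm6), and the iron, cofactor and nucleotide carriers lie above 0 except Slc25a36.

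The outer membrane entry gate was higher in part. Of the 9 genes of the TOM complex and its receptors, 4 were higher, 1 lower and 4 did not pass, with a median of 0.13. Among all genes 26.5% were higher and 29.3% lower, the shares to set beside the counts of every role below. Only Tomm6 and Tomm20 remained called, both higher, with the array clusters as a random block. Tomm6, a small subunit that stabilises the channel, had the highest mean of all members: it ran from -0.23 in BXD38 through a median of 0.66 to 1.67 in BXD19. Its mean was 0.76 ± 0.0703 (SE, n = 31 strains; limma adjusted p = 1.79e-10) and it lay above 0 in 30 strains, all but BXD38. Tomm20, the receptor that reads presequences, ran from 0.018 in BXD9 through 0.48 to 1.74 in BXD2, with a mean of 0.53 ± 0.0596 (limma adjusted p = 5.85e-09). It was the only member above 0 in all 31 strains, and its mean was 0.33 with spot position removed. Tomm7, another small subunit, was higher at 0.35 and ran from -0.71 in BXD24 through 0.34 to 1.26 in BXD13. Tomm40l, a paralogue of the channel protein, was higher at 0.30, and Tomm20l, a paralogue of the presequence receptor, was lower at -0.29.

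Tomm40, the import channel itself, did not pass, with a mean of 0.11 and values from -0.89 in BXD13 through 0.12 to 1.18 in BXD38. With spot position removed its mean was 0.36 and passed (limma adjusted p = 1.03e-05). The central receptor gene Tomm22 ran from -0.78 in BXD34 through -0.042 to 0.73 in BXD12, and its mean of -0.088 did not pass. Nor did the small subunit Tomm5 at 0.13. Tomm34, a cytosolic co-chaperone that assists import without being part of TOM, was lower at -0.55 ± 0.0895 (n = 31; limma adjusted p = 3.52e-06) and ran from -2.50 in BXD5 through -0.45 to 0.21 in BXD38. It was below 0 in 27 strains.

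For Tomm70a, the receptor for carrier precursors, the probes did not agree. One averaged -0.17 and ran from -1.64 in BXD38 through -0.012 to 0.70 in BXD21, with 15 strains above 0 (limma adjusted p over all probes = 0.0883). The other averaged 0.34 and ran from -0.26 in BXD32 through 0.36 to 0.75 in BXD2, with 29 strains above 0 (limma adjusted p = 1.46e-07). Over the 31 strains the correlation of these probes was -0.163, given as a description. Over the 902 genes with 2 probes its median was 0.0196, so a value under a gene name here is that of its probe. For the 60 members with 1 probe no such comparison can be made. The average of Tomm70a, 0.084, did not pass.

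In the TIM23 complex and its motor 4 of 6 genes were higher and 1 lower, with a median of 0.31. Timm17a and Timm17b encode alternative channel-forming subunits. Timm17a ran from -0.52 in BXD6 through 0.57 to 1.99 in BXD2 with a mean of 0.51 ± 0.0914 (n = 31; limma adjusted p = 1.76e-05), and Timm17b averaged 0.42. Both means were lower with spot position removed, at 0.23 and 0.16, and both still passed. Timm50, the receptor that takes presequences from TOM, was higher at 0.38 and ran from -0.24 in BXD42 through 0.39 to 1.18 in BXD9. Timm21, which connects the complex with TOM, was higher at 0.24. With the array clusters as a random block 2 of the 6 genes, Timm17b and Timm50, remained higher and 0 lower, and Timm17a did not pass.

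Timm23, the other channel subunit, averaged 0.050 and did not pass. It ran from -0.89 in BXD32 through 0.066 to 0.81 in BXD20, and with spot position removed its mean was -0.22 and passed on the low side (limma adjusted p = 0.00891). The direction for this gene thus depends on the treatment of spot position. Timm44, which anchors the import motor, was lower at -0.22 and ran from -1.37 in BXD29 through -0.081 to 0.77 in BXD31. Its low values came from array cluster 5, whose 9 arrays lay between -1.37 and -0.21, below all 10 arrays of cluster 1, which lay between -0.087 and 0.13. The clusters were built from all genes, these included, so such contrasts are descriptions.

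The genes of the carrier branch, TIM22 and the small TIM chaperones, were mixed. Of 8 genes 2 were higher, 2 lower and 4 did not pass, with a median of 0.059. Timm9 alone remained called, on the low side, with the array clusters as a random block. Timm8a1, whose human counterpart is mutated in a deafness and dystonia syndrome, was higher at 0.26 and ran from -0.55 in BXD23 through 0.20 to 1.42 in BXD24. Timm10b, the small TIM bound to the TIM22 complex, was also higher at 0.26. Timm9 and Timm10 form 1 chaperone ring together. Timm9 was lower at -0.39 and ran from -0.93 in BXD15 through -0.42 to 0.17 in BXD18, below 0 in 28 strains. Timm10 averaged 0.12, did not pass, and ran from -0.63 in BXD15 through 0.12 to 0.66 in BXD21. It was higher at 0.16 with spot position removed (limma adjusted p = 0.0227). Their probes sat at the same position of the print repeat.

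Timm29, a subunit of the TIM22 complex, was lower at -0.11, but its mean was 0.0016 with spot position removed and did not pass. Timm22, the TIM22 channel protein, averaged -0.10 and did not pass. Timm8b ran from -0.70 in BXD40 through 0.14 to 0.55 in BXD6 and Timm13, its partner, from -0.66 in BXD31 through 0.067 to 0.61 in BXD11. Neither passed at means of 0.089 and 0.029, and with spot position removed Timm8b was higher at 0.33 and Timm13 lower at -0.13. Timmdc1 carries a TIM name but encodes an assembly factor of respiratory complex I. It was lower at -0.45, with array cluster 4 between -1.53 and -0.53 and cluster 5 between -0.32 and 0.33. These clusters were picked for their contrast, which is a description. Its probe correlated at 0.581 over strains with the other probes at its position, and its mean was -0.30 with spot position removed.

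**Figure D2:**
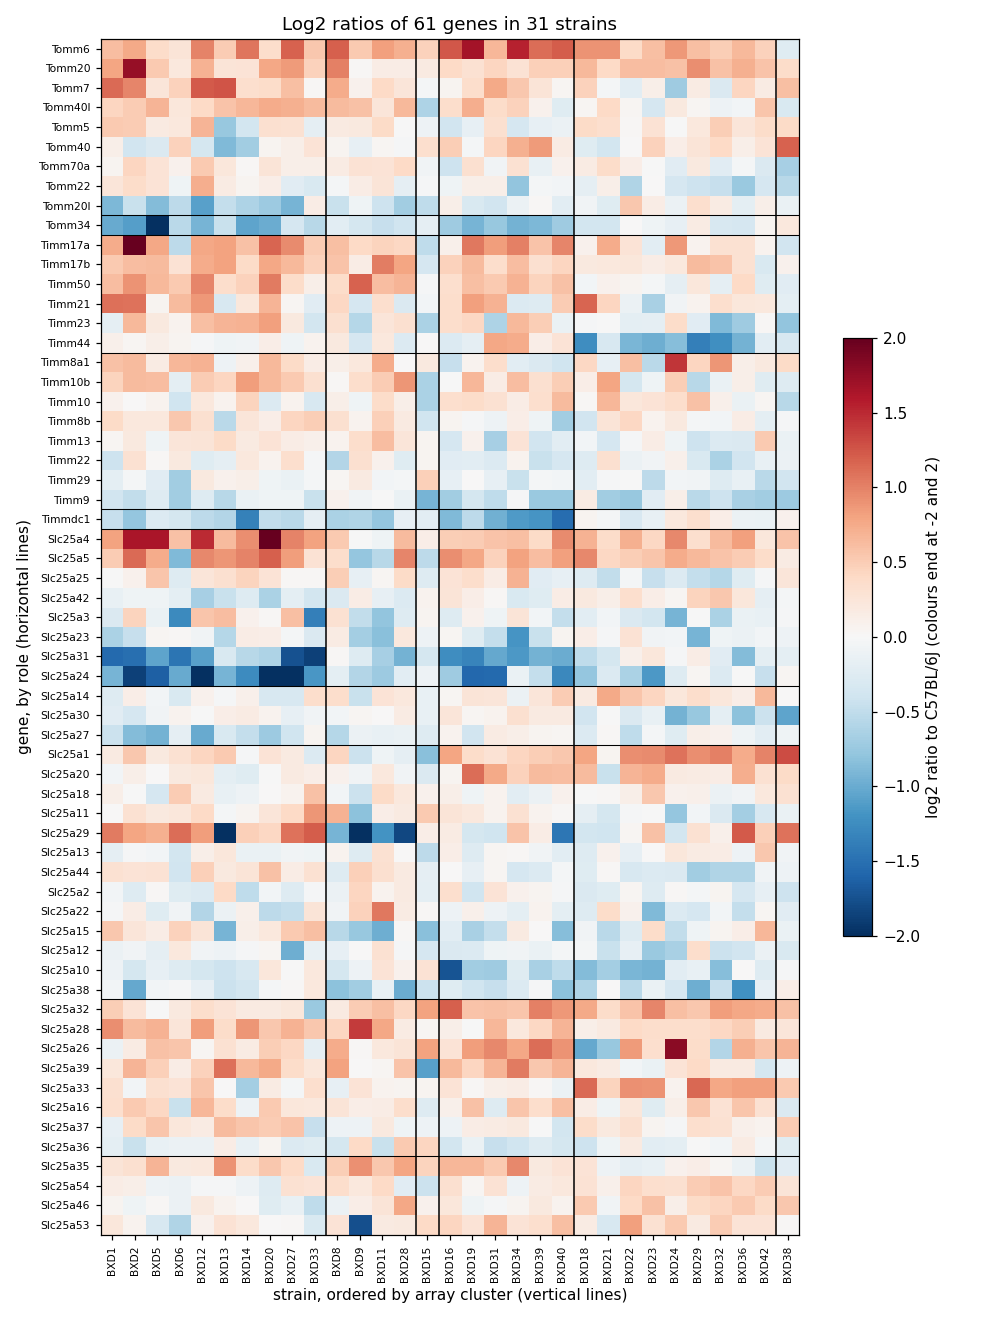
Log2 ratio to C57BL/6J of the 61 genes (rows, grouped by role) in each of 31 strains (columns, ordered by array cluster), with colours that end at -2 and 2. Slc25a31 and Slc25a24 are low in most strains of clusters 1 and 4, and Slc25a29 is low in all 4 strains of cluster 2.

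Among the carriers for ADP, ATP and phosphate, the paralogues that exchange ADP for ATP pointed in different directions. Of 8 genes of this role 2 were higher, 3 lower and 3 did not pass, with a median of -0.11. Slc25a4 remained higher and Slc25a24 and Slc25a31 lower with the array clusters as a random block. Slc25a4, the exchanger known from heart and muscle, ran from -0.083 in BXD11 through 0.63 to 2.39 in BXD20 and averaged 0.72 ± 0.0877 (n = 31; limma adjusted p = 2.78e-08), above 0 in 29 strains. Slc25a5, the widely expressed exchanger, ran from -0.89 in BXD6 through 0.61 to 1.20 in BXD20 and averaged 0.51 ± 0.0917 (n = 31; limma adjusted p = 1.60e-05). It was above 0 in 27 strains, and with the array clusters as a random block its adjusted p was 0.109. Slc25a31, the exchanger known from testis, was lower at -0.73 ± 0.101 (n = 31; limma adjusted p = 2.95e-07) and ran from -1.87 in BXD33 through -0.67 to 0.23 in BXD23.

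Slc25a24, a calcium-regulated carrier of ATP-magnesium and phosphate, had the lowest mean of all members, -0.88 ± 0.123 (n = 31; limma adjusted p = 3.47e-07). It ran from -2.51 in BXD20 through -0.73 to 0.039 in BXD38 and was below 0 in 29 strains. With spot position removed its mean was -0.58. Its 10 values in array cluster 1 lay between -2.51 and -0.93, and its 4 values in cluster 2 between -0.73 and -0.19. Slc25a23, a carrier of the same kind, was lower at -0.20, but at -0.097 and not called with spot position removed (limma adjusted p = 0.163). Slc25a25, the third of them, averaged 0.022 and did not pass. Slc25a3, the phosphate carrier, averaged -0.17 and did not pass, with values from -1.37 in BXD33 through -0.13 to 0.62 in BXD13. Slc25a42, a carrier of coenzyme A, averaged -0.057 and did not pass.

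**Figure D3:**
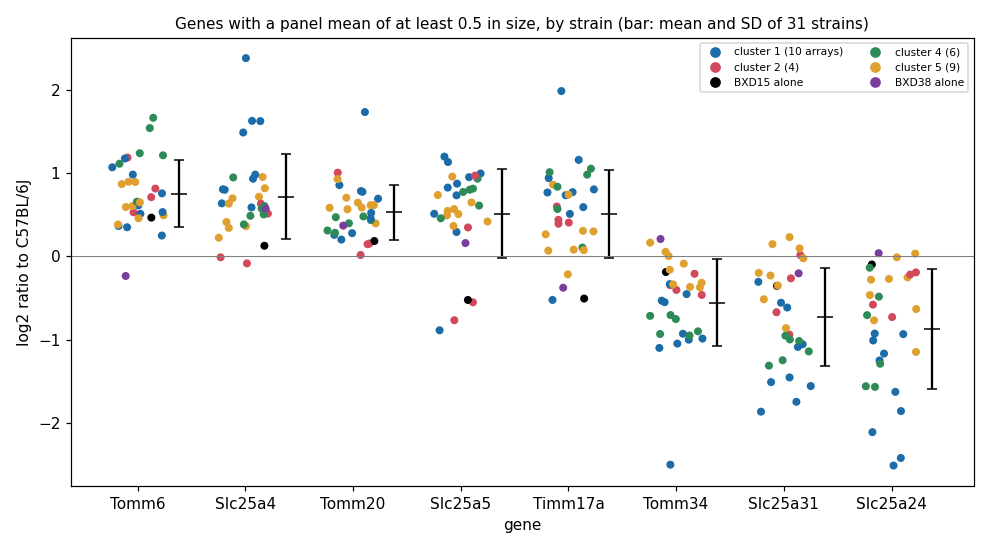
Log2 ratio to C57BL/6J in each of 31 strains for the 8 genes that passed the threshold with a panel mean of 0.5 or more in size; points are strains coloured by array cluster, and bars give the mean and SD. Tomm20 lies above 0 in all 31 strains, and Slc25a24 runs from -2.51 to 0.039.

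Near the size of 0.5 used to pick these 8 genes, Timm17a lay just inside at 0.509 and Slc25a32 just outside at 0.499. Of the lower members Tomm34 was just inside at -0.55 and Timmdc1 just outside at -0.45.

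The uncoupling-like carriers had 2 lower genes, Slc25a27 at -0.25 and Slc25a30 at -0.14, and 1 higher, Slc25a14 at 0.14. No call of this role remained with the array clusters as a random block. Slc25a14 did not pass with spot position removed, where its mean was -0.023. Slc25a30 had an adjusted p of 0.0470 in limma and was not called without BXD15 and BXD38 (limma adjusted p = 0.0981).

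Of the 13 carriers of organic and amino acids 2 were higher, 3 lower and 8 did not pass, with a median of -0.029. Only Slc25a38 remained called, on the low side, with the array clusters as a random block. Slc25a1, the citrate carrier, was higher at 0.42 and ran from -0.83 in BXD15 through 0.43 to 1.31 in BXD38. Slc25a20, which brings acylcarnitines in for fatty acid oxidation, was higher at 0.24, or 0.11 and not called with spot position removed. Lower were Slc25a10, the dicarboxylate carrier, at -0.35, Slc25a38, which imports glycine for haem synthesis, at -0.37, and Slc25a12. Slc25a12 and Slc25a13 encode the aspartate-glutamate carriers of the malate-aspartate shuttle. Slc25a12 averaged -0.18 and ran from -0.98 in BXD27 through -0.12 to 0.35 in BXD29.

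Slc25a13 had the smallest spread over strains of all members, an SD of 0.210, and ran from -0.52 in BXD15 through -0.061 to 0.53 in BXD42. Its mean of -0.028 did not pass, and with spot position removed it was 0.21 and passed. Slc25a18, a glutamate carrier, had the next smallest SD, 0.231, and ran from -0.43 in BXD9 through 0.077 to 0.58 in BXD33. Its mean of 0.068 did not pass. Slc25a11, the oxoglutarate-malate carrier, averaged 0.050 and ran from -0.81 in BXD9 through 0.071 to 0.88 in BXD33. The other members of this role that did not pass were the glutamate carrier Slc25a22 at -0.077, the ornithine carriers Slc25a2 at -0.072 and Slc25a15 at -0.10, the branched-chain amino acid carrier Slc25a44 at -0.029, and Slc25a29. After removal of spot position Slc25a2 was higher at 0.11 (limma adjusted p = 0.0408) and Slc25a15 lower at -0.17 (0.0115).

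The carriers of iron, cofactors and nucleotides were the role with the most calls on the high side. Of the 8 genes 7 were higher and 1 lower, with a median of 0.32, where 26.5% of all genes were higher and 29.3% lower. The count depends on the genes placed in this role, and the roles were chosen with earlier results of these data known. Slc25a42, a carrier of coenzyme A that did not pass at -0.057, was counted with the carriers for ADP, ATP and phosphate. Of the nucleotide carriers counted there, Slc25a4 and Slc25a5 were higher, Slc25a23, Slc25a24 and Slc25a31 were lower, and Slc25a25 did not pass. Slc25a32, which carries folate and FAD, averaged 0.499 ± 0.0650 (n = 31; limma adjusted p = 9.46e-08) and was above 0 in 29 strains. The mitoferrin genes for iron import were both higher. Slc25a28 averaged 0.46 and ran from -0.0010 in BXD19 through 0.41 to 1.40 in BXD9, and Slc25a37 averaged 0.16 and ran from -0.46 in BXD33 through 0.17 to 0.63 in BXD13. Slc25a26, which imports S-adenosylmethionine, averaged 0.39 with the wide range of -1.03 in BXD18 through 0.41 to 1.80 in BXD24. Slc25a39, tied to glutathione import, averaged 0.33, the pyrimidine nucleotide carrier Slc25a33 0.31 and Slc25a16, tied to coenzyme A, 0.22. Slc25a36, the other pyrimidine nucleotide carrier, was lower at -0.12. With spot position removed 6 were higher, 1 lower and Slc25a33 did not pass. With the array clusters as a random block 2 remained higher, Slc25a28 and Slc25a32, and 0 lower.

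In the 4 remaining carrier genes 3 were higher, Slc25a35 at 0.30, Slc25a54 at 0.17 and the outer membrane protein gene Slc25a46 at 0.15, and Slc25a53 averaged 0.14 without passing. Slc25a35 alone remained called with the array clusters as a random block. By gene name, 10 of the 25 import genes were higher and 6 lower, and 15 of the 36 carriers were higher and 9 lower. Beside these stand 26.5% higher and 29.3% lower among all genes, and most calls were lost with the array clusters as a random block.

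Members varied over strains about as much as other genes: the median SD was 0.363 against 0.358 over all 15096 genes, and 33 of the 61 members were above the latter. Slc25a29, a carrier of basic amino acids, stood out with an SD of 1.01, larger than in 99.2% of all genes. Next came Slc25a24 (0.724), Slc25a31 (0.590) and Slc25a26 (0.564). Slc25a29 ran from -2.56 in BXD13 through 0.16 to 1.22 in BXD36, and its mean was 0.018. It was below -0.9 in 6 strains, BXD8, BXD9, BXD11, BXD13, BXD28 and BXD40, which include all 4 arrays of cluster 2, where it averaged -1.51.

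The strain values of Slc25a29 moved with its place on the array. Over strains they correlated at 0.891 with the mean of the other 47 probes at that position of the print repeat, a mean that itself ran from -1.52 in BXD9 to 1.01 in BXD38. With the position effect removed the SD was 0.483, larger than in 81.6% of genes, and the range was -1.34 in BXD13 to 1.05 in BXD36. Of the 10 genes with the most similar strain values 5 sat at the same position, led by 3110099E03Rik and Gmppa (both 0.938). The ornithine carrier Slc25a15 followed Slc25a29 over strains (r = 0.769, and 0.502 with spot position removed) and correlated at 0.767 with the other probes of its own position. Such strong ties to position were not general. Among the 62 member probes the median correlation with the other probes at the position was 0.143, against 0.229 over all named probes, and 11 (17.7%) exceeded 0.5 against 18.2%. For Slc25a4 it was -0.0582.

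**Figure D4:**
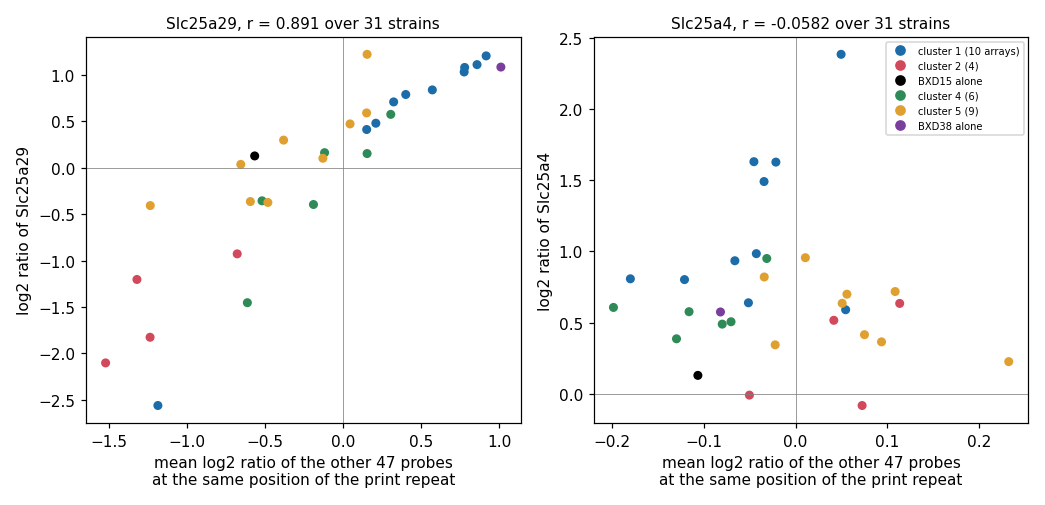
Log2 ratio of Slc25a29 (left) and Slc25a4 (right) in each of 31 strains against the mean log2 ratio of the other 47 probes at the same position of the print repeat; points are strains coloured by array cluster. Slc25a29 rises with its neighbours in position (r = 0.891) and Slc25a4 shows no such relation (r = -0.0582).

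Over strains the members did not move as 1 group. The median correlation over all 1830 pairs of members was 0.0141, against -0.00025 over all gene pairs, a description in which every pair shares the same arrays. Pairs above 0.5 made up 4.21% (2.88% of all gene pairs) and pairs below -0.5 made up 2.90% (2.35%). The first principal component touched many of them: 17 members correlated with it above 0.5 and 12 below -0.5, together 47.5% of members against 28.9% of all genes. On that component, with its sign set so that Timm50 is positive, import genes leaned one way, with 10 of 25 above 0.5 and 3 below -0.5. Carriers were split, with 7 of 36 above and 9 below. Among all genes 15.3% lay above 0.5 and 13.5% below -0.5.

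The TIM23 complex was the role with the highest median correlation, 0.394, and 6 of its 15 pairs exceeded 0.5, from 0.503 for Timm17b with Timm23 to 0.566 for Timm17b with Timm50. The median was 0.271 with spot position removed and 0.0836 with the first principal component removed. The probes of Timm17b and Timm23 shared a position of the print repeat, and their r was 0.181 with spot position removed. Over strains Timm17a, Timm17b and Timm23 correlated at 0.652, 0.703 and 0.607 with the other probes at their positions. In the TOM complex 0 of 36 pairs exceeded 0.5 and 4 were below -0.5: Tomm40 with Tomm70a (-0.644), Tomm20l with Tomm22 (-0.616), Tomm20l with Tomm7 (-0.590) and Tomm22 with Tomm40 (-0.521). The widest contrast among the carriers for ADP, ATP and phosphate was Slc25a4 with Slc25a24 at -0.678, which was -0.713 with spot position removed and -0.524 with the first principal component removed. These pairs were picked for their size and have no test here, but Tomm22 with Tomm40 is also among the partner pairs tested next, as are Timm17a with Timm23 and with Timm50.

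Partner pairs of 1 complex, or paralogues, were tested over the 31 strains. In 16 pairs 7 passed an adjusted p of 0.05 (permutation test with 100000 resamples, 2-sided, adjusted over the 16). The permutation takes the 31 arrays as exchangeable, although they fell into clusters. Fewer pairs passed with spot position or the first principal component removed, as given in the closing section. The share of all gene pairs that would pass was not computed, so the count is not read as a trait of partners. The strongest was Slc25a4 with Slc25a5, at r = 0.610 (permutation p = 0.000770, adjusted p = 0.00731) and rho = 0.613 (permutation p = 0.000340, adjusted p = 0.00544). Without the 2 strains farthest from the median of Slc25a4, r was 0.574. Slc25a5 had a gap between 4 strains at or below -0.52 (BXD6, BXD9, BXD11 and BXD15) and 27 at or above 0.16. Among these 27 strains r was 0.590 and rho 0.492. The split was made on Slc25a5 itself after seeing the data, so these values are a description and not a test. The probes of this pair shared a position of the print repeat, yet r was 0.618 with spot position removed and 0.606 with the first principal component removed. Within array clusters 1, 4 and 5 it was 0.590, 0.214 and 0.490, and none of these passed. Of all gene pairs 0.821% had a higher correlation. The paralogues are alike in sequence, and whether each probe reads the other transcript was not tested.

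Of the other 6 pairs past the threshold, Slc25a3 with Slc25a5 had r = 0.50 and rho = 0.439 (adjusted permutation p = 0.0153 and 0.0374), with r = 0.370 without the 2 farthest strains. Timm17a correlated with Timm50 (r = 0.547, rho = 0.557, adjusted permutation p = 0.00731 and 0.00692) and with Timm23 (r = 0.546, rho = 0.586, adjusted permutation p = 0.00731 and 0.00568). Without the 2 farthest strains these were 0.583 and 0.567. Timm23 with Timm50 had r = 0.440 and rho = 0.448 (adjusted permutation p = 0.0309 and 0.0374), and 0.304 without the 2 farthest strains. With spot position removed the 3 TIM23 pairs came to 0.450, 0.348 and 0.346. With the first principal component removed they came to 0.221, 0.259 and -0.0676. Of all gene pairs 1.78%, 1.79% and 4.97% had a higher correlation than these 3 TIM23 pairs, and 2.89% than Slc25a3 with Slc25a5.

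Tomm7 with Tomm22 had r = 0.448 (adjusted permutation p = 0.0309) but rho = 0.355 (adjusted permutation p = 0.0900), and r was 0.423 without the 2 farthest strains, 0.601 with spot position removed and 0.184 with the first principal component removed. Tomm22 with Tomm40, the central receptor and the channel it is bound to, ran in opposite directions, at r = -0.521 and rho = -0.551 (adjusted permutation p = 0.0105 and 0.00692). Their r was -0.438 without the 2 farthest strains, -0.356 with spot position removed and -0.319 with the first principal component removed, and -0.465, -0.499 and -0.303 within array clusters 1, 4 and 5. Within those clusters, of 10, 6 and 9 arrays, 0 of the 16 pairs passed. Of all gene pairs 4.65% had a higher correlation than Tomm7 with Tomm22, and 98.1% a higher one than Tomm22 with Tomm40.

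The 9 pairs that did not pass included partners of known chaperone rings. Timm9 with Timm10 had r = 0.133, Timm8a1 with Timm13 0.132 and Timm8b with Timm13 0.226. Timm44 with Timm23 had 0.353 (adjusted permutation p = 0.0929), Tomm20 with Tomm22 0.0840 and Tomm20 with Tomm70a 0.137. The aspartate-glutamate carriers Slc25a12 and Slc25a13 had -0.0063 and the mitoferrins Slc25a28 and Slc25a37 -0.0205. Slc25a1 with Slc25a11 had -0.367 (adjusted permutation p = 0.0873) and rho = -0.433 (adjusted permutation p = 0.0374).

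**Figure D5:**
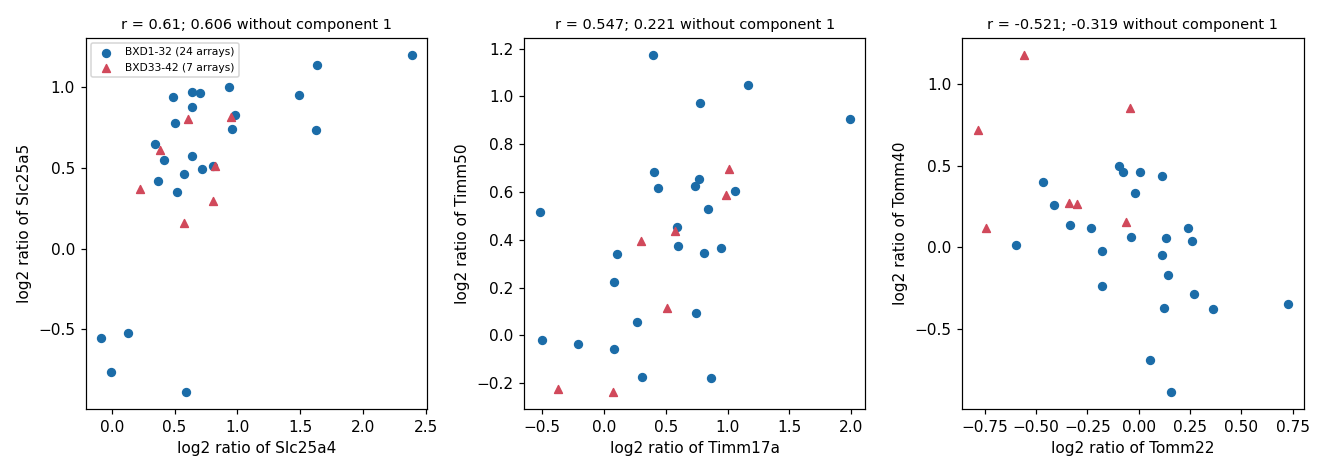
Log2 ratios in each of 31 strains of Slc25a4 and Slc25a5 (left), Timm17a and Timm50 (middle) and Tomm22 and Tomm40 (right); circles are BXD1-32 and triangles BXD33-42, and each heading gives Pearson's r and r with the first principal component removed. Slc25a4 and Slc25a5 keep their correlation without the component (0.610 and 0.606), and Timm17a and Timm50 do not (0.547 and 0.221).

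Between the later strains BXD33-42 and BXD1-32, a difference in which the common dye and reference effects cancel, 0 of 61 members passed (limma, Benjamini-Hochberg over all genes), and 1 of all genes did (0.00662%). At an unadjusted p under 0.05 there were 4 members (6.56%) against 12.9% of all genes. The smallest adjusted p of a member was that of Tomm40. Its 7 values in BXD33-42 ran from 0.12 in BXD36 through 0.27 to 1.18 in BXD38, all above 0, and its 24 values in BXD1-32 from -0.89 in BXD13 through 0.048 to 0.50 in BXD16. The means were 0.51 and -0.0017, a difference of 0.51 (95% interval 0.19 to 0.83, limma adjusted p = 0.168), and the groups overlapped. The difference was 0.21 with spot position removed and 0.41 without BXD15 and BXD38.

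Tomm22 went the other way. All 7 strains of BXD33-42 lay below 0, from -0.78 in BXD34 through -0.34 to -0.042 in BXD39, whereas BXD1-32 ran from -0.59 in BXD22 through 0.031 to 0.73 in BXD12 with 13 of 24 above 0. The difference was -0.41 (95% interval -0.67 to -0.15, limma adjusted p = 0.173), and -0.41 with spot position removed. The next members by p were Slc25a27, with a difference of 0.30 (limma adjusted p = 0.339), Slc25a35 with -0.33 (0.355) and Tomm70a with -0.23 (0.388). Slc25a27 ran from -0.21 in BXD42 through 0.036 to 0.11 in BXD34 in the later strains and from -1.01 in BXD12 through -0.26 to 0.16 in BXD31 in BXD1-32. Slc25a35 ran from -0.45 in BXD42 through -0.12 to 0.96 in BXD34 and from -0.18 in BXD22 through 0.38 to 0.91 in BXD9, and Tomm70a from -0.67 in BXD38 through -0.042 to 0.30 in BXD34 and from -0.42 in BXD16 through 0.16 to 0.53 in BXD12. In all 3 genes the groups overlapped.

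Across the 31 strains the mean of the 61 members ran from -0.12 in BXD15 to 0.18 in BXD12. BXD15 had the lowest value of all strains for 9 members, more than any other strain, and it is 1 of the arrays that stood alone. The share of all genes lowest in BXD15 was not computed, so this count is not read as a trait of the members. The 5 genes whose strain values were most like the member mean, out of all genes and over 31 strains, were Pmepa1 (r = 0.808), C1qtnf3 (0.791), the splicing factor genes Srsf6 (0.776) and Srsf2 (0.774), and Bloc1s1 (0.776). These correlations were picked for their size.

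Other genes of the import pathway had calls in both directions too, where 26.5% of all genes were higher and 29.3% lower. Of 15 measured genes for matrix chaperones and presequence processing 4 were higher and 5 lower, close to those shares. Hspe1, the cochaperonin of the matrix, averaged 0.94 and was above 0 in 29 strains. Hspa9, the matrix Hsp70 that drives the import motor, was lower at -0.51, as were the mitochondrial intermediate peptidase gene Mipep at -0.49 and the matrix chaperone gene Trap1 at -0.45. Trap1 was at -0.099 and not called with spot position removed. In the list for outer membrane insertion, intermembrane space and inner membrane insertion, 5 of 9 genes were higher and 0 lower. They were led by Romo1 at 1.02, with Samm50, the core of the outer membrane sorting machinery, at 0.21, and Chchd4, of the disulphide relay, and Agk, a TIM22 subunit, both at 0.15. Chchd4 was at 0.059 and Agk at 0.058 with spot position removed, and neither passed (limma adjusted p = 0.329 and 0.378), and the list had 3 higher and 1 lower, Oxa1l at -0.18. Of 11 channels and carriers without the Slc25a name 3 were higher and 3 lower, with the uncoupling protein genes Ucp1 at 0.50 and Ucp3 at -0.48, Sfxn3 at 0.37 and Letm1 at -0.25.

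Markers of kidney tubules were higher in part, where 26.5% of all genes were higher and 29.3% lower. Counts with the array clusters as a random block are not given for these or the pathway lists. Of 12 proximal tubule markers 8 were higher and 0 lower, led by Lrp2 (0.67), Cyp4b1 (0.60), Kap and Gatm (both 0.55). The 4 not called included Slc5a2 at -0.44. Per strain the mean of the list ran from -0.53 in BXD38 to 1.53 in BXD2. Over the 31 strains that mean correlated with the member mean at 0.597, given as a description. For 7 distal nephron markers, of which 4 were higher and 0 lower, it was 0.655, with a list mean from -0.66 in BXD15 to 0.53 in BXD11. Adipose markers were higher in 6 of 9 cases and lower in 0 (0.419, mean per strain from -0.23 to 1.13), and Ucp1 is among them too. Skeletal muscle markers were lower in 7 of 9 cases and higher in 0 (-0.395, mean per strain from -0.61 to 0.16). Neuron markers were split, with 3 of 9 higher and 3 lower (-0.243, from -0.32 to 0.20), as were glial markers with 2 of 6 each way (0.0612, from -0.22 to 0.21), liver markers with 2 of 7 each way (0.349, from -0.62 to 0.71) and erythroid markers with 2 of 4 higher and 1 lower (0.129, from -0.54 to 0.55). The proximal tubule list still had 8 higher and 0 lower with spot position removed, and the distal nephron list had 4 higher and 1 lower (Slc12a3 at -0.18). The adipose list then had 6 higher and 1 lower (Adipoq at -0.40), the skeletal muscle list 5 lower and 0 higher, the liver list 0 higher and 1 lower, and the neuron list 2 each way. Ratios to a reference of the same tissue do not show which markers were expressed, so the tissue named in the labels could not be checked, and the part of these cell types in the results was not tested. In bulk RNA fewer cells of a type and less RNA per cell cannot be told apart.

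Members that lie next to each other among the measured genes did not share their strain values strongly. Tomm20l and Timm9 correlated at -0.295 and Slc25a54 and Slc25a24 at 0.263, with 0 measured genes between them in either pair. These came to -0.0194 and 0.257 with spot position removed.

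Promoter sequences, from RefSeq with assembly GRCm38.p6, were available for 50 of the 61 members and ran from 250 bases before to 50 after the gene start. Factors of the ETS family and NRF1 are known regulators of nuclear genes for mitochondrial proteins, so their motifs were sought on both strands. The ETS motif CCGGAAGT, or ACTTCCGG on the other strand, was in 7 of the 50 (14%) and in 4.31% of the 27025 genes with a promoter. The NRF1 motif, a palindrome, was in 0 of the 50 and in 1.07% of all. Of the 7 members with the ETS motif, Timm10 and Timm10b hold it after the start. The stretches before the start in the other 5 are shown because they join both arms of the module, an import receptor, a channel, a TIM22 subunit, an assembly factor and a carrier; capitals mark the motif, and each run is 5′ to 3′ on the strand of the gene.

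Slc25a20, chr9:108662007-108662114, plus strand: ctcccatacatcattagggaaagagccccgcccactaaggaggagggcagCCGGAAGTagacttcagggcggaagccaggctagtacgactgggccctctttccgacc

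Timm23, chr14:32201892-32201989, minus strand: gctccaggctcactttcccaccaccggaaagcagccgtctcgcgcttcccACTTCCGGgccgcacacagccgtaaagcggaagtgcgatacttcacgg

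Timm29, chr9:21592472-21592566, plus strand: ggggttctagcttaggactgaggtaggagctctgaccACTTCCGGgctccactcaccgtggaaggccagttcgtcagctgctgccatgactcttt

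Timmdc1, chr16:38522664-38522721, minus strand: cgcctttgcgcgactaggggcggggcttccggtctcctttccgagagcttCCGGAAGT

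Tomm70a, chr16:57121584-57121691, plus strand: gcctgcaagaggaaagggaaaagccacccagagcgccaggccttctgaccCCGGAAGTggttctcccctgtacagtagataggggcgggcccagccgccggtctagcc

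The motif starts 79 bases before the gene start in Slc25a20, 48 in Timm23, 213 in Timm29, 8 in Timmdc1 and 80 in Tomm70a. Members with and without it had like panel means: the 7 with the motif had a median of 0.084 with 2 higher and 2 lower, and the other 43 had a median of 0.029 with 15 higher and 12 lower. The median correlation between members over strains was 0.0820 among the 7 and 0.0074 among the 43. A match of letters does not show that a factor binds there.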

How the data were processed

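Transcript ratios of 31 BXD strains to C57BL/6J were taken as the authors deposited them, as log2 ratios of 23040 probes per array. Per the submitters' processing notes R 2.0.0 and limma were used. The steps, the base and the direction are not given in the sources used here. Once sorted, every column held the same values, which is what quantile normalisation leaves, and no value was missing. Gene names came from the platform annotation of the array; 16874 probes had 1 name, 134 several and 6032 none, and all member names matched RefSeq by gene number. Probes of a gene were averaged.

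Panel means against 0, and BXD33-42 against BXD1-32, were tested over all 15096 genes by the moderated test of limma (version 3.58.1, under R 4.3.3; functions lmFit, then eBayes), 2-sided, with Benjamini-Hochberg adjustment and a threshold of 0.05. Recovery of known shifts was tested on simulated data with independent arrays. The fit treats arrays as independent, and the array clusters as a random block (consensus correlation 0.354) were an alternative. Pairs were tested with 100000 permutations. Alternatives were spot position or the first principal component removed, arrays centred, the 10% of genes of smallest spread left out, BXD15 and BXD38 left out, other probe summaries, array weights, robust eBayes, array clusters taken singly, and Spearman correlation. The members, roles and lists were chosen with earlier results of these data known. Every member is given with its mean. Strain values were given for called members with a mean of at least 0.5 in size, the 4 of largest and 2 of smallest SD, the 5 of smallest p between groups, each Tomm70a probe and the members of the tested pairs. Up to 4 called genes of largest mean were named per pathway list, and the 5 genes most like the member mean. Scanner intensities and protein sequences were not analysed here.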

Additional observations from a re-analysis of the deposited data

Results flagged for a closer look

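In 6 of the 61 members 1 strain of the 7 in BXD33-42 lay apart from the other 6 by a gap of more than 0.568 of the whole range, Dixon's limit for 7 samples. About 1 group in 20 does so by chance as the nominal rate of this limit, and the larger group was not examined in this way. The share over all genes was not computed, so the count of 6 is not read as a trait of the members. Slc25a32 in BXD33 was at -0.75, where the other 6 strains of BXD33-42 lay between 0.56 and 1.01. Slc25a26 in BXD33 was at -0.18, with the others between 0.56 and 1.11, a gap of 0.569 of the range and just past the limit. Slc25a23 in BXD34 was at -1.18, with the others between -0.44 and 0.056. Timm9 in BXD34 was the highest of the 7 at -0.023, with the others between -0.74 and -0.45. Slc25a13 in BXD42 was at 0.53, with the others between -0.22 and 0.026. Slc25a29 in BXD40 was at -1.45, with the others between 0.15 and 1.22; the other probes at its position of the print repeat averaged -0.61 on that array. In BXD1-32 Timm9 reached 0.17 in BXD18, Slc25a26 -1.03 in BXD18 and Slc25a29 -2.56 in BXD13, so these 3 flagged values were not extremes of the whole panel. Those of Slc25a32, Slc25a23 and Slc25a13 were. The cause was not tested for any of the 6.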

How the results depend on the processing

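With the array clusters as a random block (consensus correlation 0.354) the members called against C57BL/6J came to 8 higher and 6 lower, and 26 calls were lost. The other alternatives kept both counts within 1.5 times. Removing spot position turned the sign of 6 members that were called with or without this step: Slc25a13 (0.21), Slc25a14 (-0.023), Slc25a2 (0.11), Timm13 (-0.13), Timm23 (-0.22) and Timm29 (0.0016). It also turned the sign of Slc25a42 (0.079), which was called in neither. Between BXD33-42 and BXD1-32, 0 members passed limma under any alternative run. Tested pairs past the threshold numbered 2 with spot position removed, 1 with the first principal component removed and 0 within each of array clusters 1, 4 and 5, where fewer arrays enter. With the component removed Timm23 with Timm50 had r = -0.0676. Within cluster 4 r was -0.132 for Timm17a with Timm23, -0.135 for Tomm7 with Tomm22 and -0.190 for Slc25a3 with Slc25a5. Within cluster 5 it was -0.0449 for Timm17a with Timm50, -0.372 for Timm23 with Timm50, -0.0075 for Tomm7 with Tomm22 and -0.290 for Slc25a3 with Slc25a5. The correlation of the Tomm70a probes was -0.40 with spot position and -0.36 with the component removed. The correlation of Slc25a4 with Slc25a5 among 27 strains was added after seeing the data. Causes were not tested. No paired analysis was possible because the labels carry no replicate numbers, with 1 array per strain. Signal over background is unknown.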
